A study of Homo sapiens with 12 samples.

Results

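The liver X receptors NR1H2 (LXRβ) and NR1H3 (LXRα), the peroxisome proliferator-activated receptors PPARD and PPARG and the vitamin D receptor VDR all bind DNA as partners of a retinoid X receptor (RXR), and they are described here together with the lipid genes ABCA1, ABCG1, MYLIP and PLIN2. These 9 genes were selected by name from the 59251 genes of the count table, and 8 of them passed the expression filter that left 13318 genes for testing. ABCG1 did not pass. PPARG passed only through its counts in cells given both drugs. RNA-Seq was carried out in HL60 cells, an established human acute myeloid leukemia line, with 3 libraries per group and 12 in all. The groups were non-treated cells, cells exposed for 48 h to 1 µM all-trans retinoic acid (ATRA), cells exposed for 48 h to palbociclib at 1 µM, which inhibits CDK4/6 (CDK4/6i), and cells that received both drugs at these doses and for this time (CDK4/6i+ATRA). The labels name no genetic modification. The labels call the replicates biological and the study describes its RNA-Seq experiments as independent, so p-values measure the spread between such libraries of 1 cell line.

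RXR receptors are shared subunits. ATRA binds the retinoic acid receptors (RARs), which also pair with RXR, so partner receptors draw on a common pool of RXR. The LXRs are switched on by oxysterols and raise transcription of the cholesterol exporters ABCA1 and ABCG1 and of MYLIP, a ubiquitin ligase that limits the uptake of lipoprotein cholesterol. PPARD and PPARG respond to fatty acids and raise genes of fatty acid use and storage, among them PLIN2, a protein that coats lipid droplets. VDR responds to active vitamin D and is known for its part in the monocytic maturation of myeloid leukemia cells.

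Total counts were 15238994 to 18679544 in the libraries of non-treated, ATRA-treated and CDK4/6i-treated cells and 12230923 to 14415276 in those of CDK4/6i+ATRA-treated cells. Levels are counts scaled to a common library total with TMM normalization (CPM), on which 3 counts, taken as the floor of detection, are 0.156 to 0.275 CPM. This floor and the intervals given for counts cover counting error only. Of 9 markers of the myeloid line, 6 passed the filter and ELANE, PRTN3 and AZU1 were listed at 0 in all libraries. These 3 genes are also listed on an alternate contig of the genome, and reads that fit both copies may not have been counted. The 9 markers summed to 7135 to 7482 CPM in non-treated cells and to 1678 to 1711 CPM with CDK4/6i+ATRA. Without MPO the sums were 800 to 816.8 and 1653 to 1677 CPM. Of the 6 tested markers, 3 were higher and 2 lower with CDK4/6i+ATRA. The granule enzyme MPO fell from 6517 to 28.0 CPM (mean, n = 3; log2 fold change -7.86 ± 0.08, adjusted p = 9.2e-54), and the integrin ITGAM rose from 9.24 to 589.5 CPM, a log2 fold change of 5.99 ± 0.06 (SE; adjusted p = 6.6e-55, edgeR's quasi-likelihood test). Of 18 markers of lymphoid, erythroid, megakaryocytic, epithelial and other cells, 11 were at the floor in all 12 libraries, 8 of them at 0. The sum of the 18 was 158 to 169.1 CPM in non-treated cells and 299.5 to 309.8 CPM with CDK4/6i+ATRA, and CD4, which monocytic cells also carry, made up 119.8 and 263.5 CPM of it. In bulk RNA, a change in the number of cells of a kind cannot be told apart from a change in RNA per cell, and the part of the maturing cells in the levels below was not tested.

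With CDK4/6i+ATRA, transcripts of PPARD, PPARG, VDR, ABCA1 and PLIN2 were higher than in any other group, MYLIP was lower than in any other group, NR1H2 was raised 1.29-fold over non-treated cells and NR1H3 did not pass the test against non-treated cells. ABCG1 stayed at or near the floor. The levels of the genes in each library are plotted by gene.

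**Figure D1:**
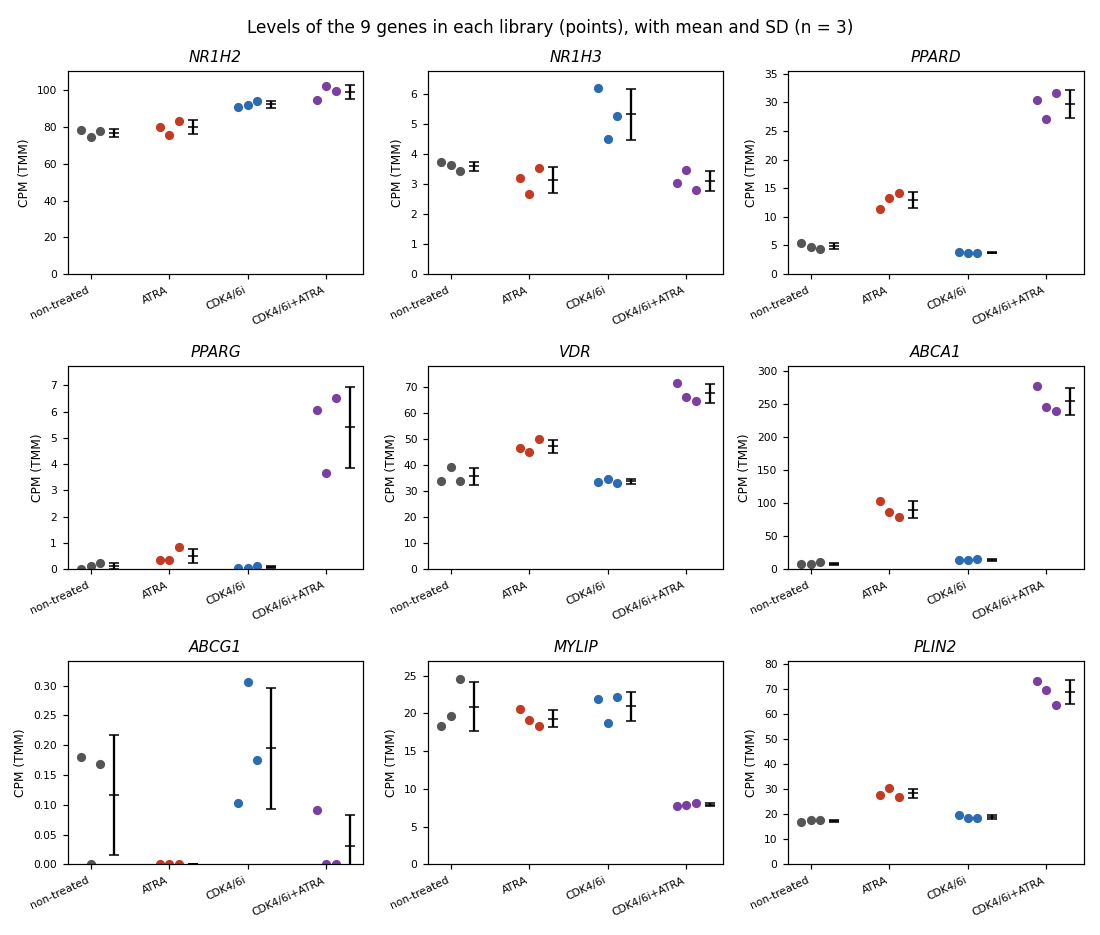
Levels of the 9 genes in each library, as TMM-normalized CPM on linear axes that start at 0 (points, 3 libraries per group; bars, mean ± SD, n = 3; each panel has its own scale). PPARD, PPARG, VDR, ABCA1 and PLIN2 are highest and MYLIP is lowest with CDK4/6i+ATRA, while ABCG1 does not exceed 0.306 CPM in any library.

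NR1H2, the LXR that most cells carry, lies on chromosome 19 (hg38 chr19:50376457-50383388, plus strand). Its levels were 78.2, 74.2 and 77.9 CPM in non-treated cells, 80.0, 75.8 and 83.4 CPM with ATRA, 90.7, 91.8 and 94.3 CPM with CDK4/6i, and 94.9, 102.4 and 99.7 CPM with CDK4/6i+ATRA. The libraries with CDK4/6i, alone or with ATRA, all lay above those without it. The log2 fold change against non-treated cells was 0.26 ± 0.05 (SE) with CDK4/6i (adjusted p = 2.7e-06) and 0.37 ± 0.05 with CDK4/6i+ATRA (adjusted p = 1.8e-09, edgeR's quasi-likelihood test after Benjamini-Hochberg adjustment, as for all adjusted p-values here). With ATRA it was 0.05 ± 0.05 (adjusted p = 0.31), and 0.10 (adjusted p = 0.045) in a fit to the compared groups only. Scaled by library size alone, which moved the median of all genes to -0.25 in this comparison, the change with CDK4/6i+ATRA was 0.10 (adjusted p = 0.054), whereas relative to that median it was 0.35 under either scaling.

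NR1H3, the LXR that macrophages induce (chr11:47248300-47269033, plus strand), was low. It gave 3.73, 3.64 and 3.44 CPM in non-treated cells, 3.21, 2.68 and 3.54 CPM with ATRA, 6.22, 4.52 and 5.27 CPM with CDK4/6i, and 3.03, 3.48 and 2.81 CPM with CDK4/6i+ATRA. The CDK4/6i libraries were the highest and did not overlap those of non-treated or CDK4/6i+ATRA-treated cells. NR1H3 rose with CDK4/6i by 0.58 ± 0.18 on the log2 scale (adjusted p = 0.0047), although without CDK4/6i replicate 1 the value was 0.44 (adjusted p = 0.063). The value with both drugs against CDK4/6i alone was -0.79 ± 0.20 (adjusted p = 0.00033). Against non-treated cells, the change with ATRA was -0.19 ± 0.19 (adjusted p = 0.38) and that with CDK4/6i+ATRA -0.21 ± 0.21 (adjusted p = 0.34). The last value was -0.48 (adjusted p = 0.030) with scaling by library size alone. NR1H3 shares 139 exon bases with ACP2 on the opposite strand, and whether reads were counted by strand is not stated, so the 733 counts of NR1H3 may include reads of ACP2, which had 3590.

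PPARD, the PPAR with the widest expression among tissues (chr6:35342558-35428178, plus strand), had 5.41, 4.70 and 4.39 CPM in non-treated cells. It had 11.3, 13.3 and 14.1 CPM with ATRA, 3.79, 3.67 and 3.63 CPM with CDK4/6i, and 30.3, 27.1 and 31.7 CPM with CDK4/6i+ATRA. No libraries of different groups overlapped. The log2 fold change against non-treated cells was 1.42 ± 0.12 with ATRA (adjusted p = 2.1e-14) and 2.62 ± 0.12 with CDK4/6i+ATRA (adjusted p = 5.5e-26). With CDK4/6i alone the change was in the other direction, -0.38 ± 0.16 (adjusted p = 0.031). This small fall did not pass the threshold without non-treated replicate 1 (-0.30, adjusted p = 0.15), without CDK4/6i replicate 2 (-0.38, adjusted p = 0.063), without CDK4/6i replicate 3 (-0.37, adjusted p = 0.071) or with no filter (-0.39, adjusted p = 0.053).

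PPARG, the regulator of fat storage in adipocytes and of lipid uptake in macrophages (chr3:12287368-12434344, plus strand), was at the edge of detection outside the drug combination. Its raw counts were 0, 2 and 4 in non-treated cells, 6, 6 and 15 with ATRA, 1, 1 and 2 with CDK4/6i, and 66, 41 and 79 with CDK4/6i+ATRA. The CDK4/6i libraries were all at or below the floor, and the CDK4/6i+ATRA libraries stood above every other library. The mean with both drugs was 5.41 ± 1.54 CPM (SD, n = 3). The pooled counts with CDK4/6i+ATRA were 45.6 times those of non-treated cells after scaling for depth, with a 95% counting interval of 20.6 to 126. The fitted log2 fold change, 5.42, was 4.86 without replicate 1 of the non-treated cells and 6.28 without their replicate 3. Against CDK4/6i alone PPARG was at least 29.5-fold higher, taking 3 counts per library as the floor. Against ATRA alone the pooled counts were 10.4 times as high (6.9 to 16.1). Since the high counts with both drugs are what let PPARG pass the filter, these differences are given as descriptions without a test. The ATRA libraries themselves had 4.4 times the level of non-treated cells (95% counting interval 1.78 to 13). The fitted log2 fold change for ATRA, likewise a description, was 2.06 ± 0.67. It was 1.53 without ATRA replicate 3, 1.51 without replicate 1 of the non-treated cells and 2.93 without their replicate 3.

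VDR (chr12:47841537-47904994, minus strand) had 33.7, 39.4 and 33.9 CPM in non-treated cells and 46.6, 44.8 and 49.9 CPM with ATRA. With CDK4/6i it had 33.3, 34.8 and 32.9 CPM, and with CDK4/6i+ATRA 71.6, 66.0 and 64.7 CPM. The ATRA libraries lay above those of non-treated and CDK4/6i-treated cells, which overlapped, and the CDK4/6i+ATRA libraries lay above all others. VDR rose with ATRA by 0.40 ± 0.06 on the log2 scale (adjusted p = 1.8e-07) and with both drugs by 0.92 ± 0.06 (adjusted p = 2.1e-18). The value for CDK4/6i alone was -0.08 ± 0.07 (adjusted p = 0.29).

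Levels of different receptors are given per kilobase of gene length in the table. This length need not be that of the transcripts expressed in these cells, so comparisons between receptors are approximate. RXRA, an RXR found in most tissues, fell with ATRA from 22.98 ± 1.05 to 10.38 ± 0.33 CPM per kb (SD, n = 3) and was 13.13 ± 0.27 CPM per kb with CDK4/6i+ATRA. Its log2 fold changes were -1.15 ± 0.04 (adjusted p = 5.1e-29) and -0.81 ± 0.04 (adjusted p = 8.4e-23). With CDK4/6i alone RXRA rose by 0.22 ± 0.04 (adjusted p = 3.6e-06). In non-treated cells NR1H2 was above RXRA at 31.8 CPM per kb, THRA, a thyroid hormone receptor, was at 17.1, and VDR was at 6.85. NR1H3 at 1.07 and PPARA, the PPAR of fatty acid oxidation, at 1.25 overlapped between libraries, and PPARD was at 0.519. With CDK4/6i+ATRA, VDR (12.4 to 13.8 CPM per kb) reached the range of RXRA (12.8 to 13.4), PPARA was at 5.95 and PPARD at 3.19. PPARG (0.517 to 0.923) overlapped NR1H3 (0.832 to 1.03). Thus PPARA, PPARD, PPARG and VDR were raised in a group in which RXRA was lower than in non-treated cells. RXRG was listed at 0 in all libraries. RXRB had 7 to 26 counts per library, but it is also listed on 5 alternate contigs, and its level is uncertain.

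**Figure D2:**
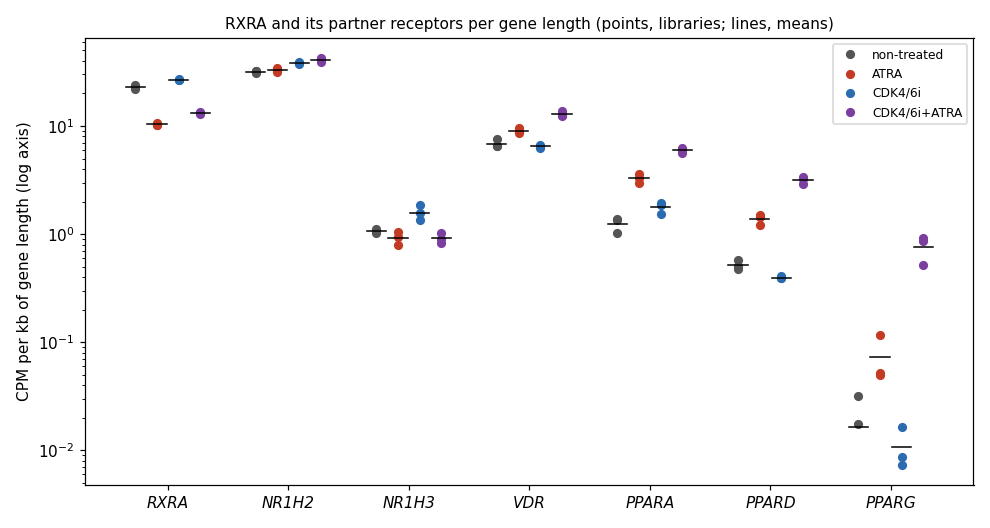
RXRA and 6 of its partner receptors in CPM per kilobase of gene length on a log axis (points, libraries; lines, means of 3 libraries, group by color). RXRA is lower in both groups with ATRA, while PPARA, PPARD, PPARG and VDR are higher there than in non-treated cells. A non-treated library in which PPARG had 0 counts cannot be drawn on this axis.

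ABCA1, which loads cholesterol and phospholipid onto apolipoproteins (chr9:104781006-104928155, minus strand), had the largest fold change of the lipid genes among the 9. It gave 7.51, 7.78 and 10.3 CPM in non-treated cells, 103.7, 87.3 and 79.7 CPM with ATRA, 13.5, 14.2 and 16.2 CPM with CDK4/6i, and 276.4, 245.2 and 239.4 CPM with CDK4/6i+ATRA. No groups overlapped. ABCA1 rose by 3.39 ± 0.09 on the log2 scale with ATRA (adjusted p = 8.9e-35) and by 0.77 ± 0.12 with CDK4/6i (adjusted p = 3.5e-07). The rise reached 4.88 ± 0.08 with both drugs (adjusted p = 1.2e-43). The level with both drugs was 2.81 times that with ATRA alone, a log2 difference of 1.49 ± 0.06 (adjusted p = 1.5e-27). ABCA1 shares 277 exon bases with NIPSNAP3B on the opposite strand, whose 699 counts over all libraries were few beside the 14487 of ABCA1.

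Promoter windows from RefSeq (GRCh38.p14), from 250 bases before to 50 bases after an annotated start, were found for 7 of the 9 genes, 15 windows in all. They were searched on both strands for direct repeats of AGGTCA with up to 2 mismatches. The spacers were 1, 3, 4 and 5 bases, the arrangements known for PPAR, VDR, LXR and RAR dimers with RXR (DR1, DR3, DR4 and DR5, that is AGGTCANAGGTCA, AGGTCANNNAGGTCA, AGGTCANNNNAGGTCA and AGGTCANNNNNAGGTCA). Among all 35116 windows of the table, 2.97%, 2.38%, 2.34% and 2.47%, respectively, held such a repeat. The windows of ABCA1, of PPARG and of MYLIP are shown because, for both drugs against non-treated cells, ABCA1 and PPARG had the largest fitted rises among the 9 genes and MYLIP the only fall past the threshold. Capitals mark repeats found. ABCA1 is written 5′ to 3′ on the minus strand (chr9:104928106-104928405), PPARG on the plus strand for the start whose window had the fewest mismatches (chr3:12288810-12289109) and MYLIP on the plus strand (chr6:16128836-16129135).
ABCA1: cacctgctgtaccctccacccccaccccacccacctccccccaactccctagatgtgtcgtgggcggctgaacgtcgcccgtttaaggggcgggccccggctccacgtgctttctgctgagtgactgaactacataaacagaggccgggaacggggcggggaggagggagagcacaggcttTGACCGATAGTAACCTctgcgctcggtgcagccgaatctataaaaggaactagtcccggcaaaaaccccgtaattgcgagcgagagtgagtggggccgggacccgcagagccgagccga
PPARG: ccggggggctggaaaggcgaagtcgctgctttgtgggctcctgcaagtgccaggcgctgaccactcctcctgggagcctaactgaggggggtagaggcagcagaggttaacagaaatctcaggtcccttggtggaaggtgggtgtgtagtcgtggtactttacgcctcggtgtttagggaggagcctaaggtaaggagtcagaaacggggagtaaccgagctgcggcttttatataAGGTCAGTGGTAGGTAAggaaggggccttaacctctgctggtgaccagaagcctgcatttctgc
MYLIP: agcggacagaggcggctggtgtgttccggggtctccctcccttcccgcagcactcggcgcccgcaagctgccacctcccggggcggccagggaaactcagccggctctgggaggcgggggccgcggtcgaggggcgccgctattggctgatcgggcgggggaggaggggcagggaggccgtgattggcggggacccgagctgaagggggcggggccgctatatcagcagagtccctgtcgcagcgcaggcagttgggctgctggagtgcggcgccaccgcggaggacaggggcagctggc

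In ABCA1, the repeat was a DR4 with 2 mismatches that begins at position -69 from the start. Read on the opposite strand it is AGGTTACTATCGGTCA. In PPARG it was a DR5 with 1 mismatch, AGGTCAGTGGTAGGTAA, at position -14. The same bases lie at -24 in an overlapping window of PPARG, and another of its 6 windows (chr3:12287118-12287417) held a DR3 and a DR5 with 2 mismatches each. The windows of NR1H2, NR1H3, MYLIP, PPARD and PLIN2 held no such match. A match is a stretch of letters only, as no binding was measured in these libraries.

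ABCG1, the exporter that passes cholesterol to lipoprotein particles (chr21:42199689-42297244, plus strand), had 17 counts in the 12 libraries together. The counts were 3, 0 and 3 in non-treated cells, 0 in each of the 3 libraries with ATRA, 2, 5 and 3 with CDK4/6i, and 1, 0 and 0 with CDK4/6i+ATRA. Every library except CDK4/6i replicate 2 was at or below the floor. An exact permutation test of 3 against 3 libraries cannot give a two-sided p under 0.1, and no difference is read from counts at the floor. A response of ABCG1 like that of ABCA1 was not seen, and smaller changes were not detectable at this depth.

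MYLIP (chr6:16129086-16163887, plus strand) had 18.4, 19.6 and 24.6 CPM in non-treated cells, 20.5, 19.1 and 18.3 CPM with ATRA, 21.9, 18.8 and 22.1 CPM with CDK4/6i, and 7.70, 7.84 and 8.10 CPM with CDK4/6i+ATRA. The first 3 groups overlapped, and the libraries with both drugs lay below all others. The log2 fold change for both drugs was -1.41 ± 0.12 (adjusted p = 1.5e-15), against -0.12 ± 0.09 with ATRA (adjusted p = 0.26) and 0.00 ± 0.09 with CDK4/6i (adjusted p = 0.97). MYLIP thus changed in the direction opposite to that of ABCA1. It shares 1482 exon bases with LOC100131159 on the same strand, which had 8 counts in all.

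PLIN2 (chr9:19108388-19127492, minus strand) had 17.0, 17.5 and 17.9 CPM in non-treated cells, 27.8, 30.3 and 27.0 CPM with ATRA, 19.8, 18.5 and 18.6 CPM with CDK4/6i, and 73.0, 69.6 and 63.5 CPM with CDK4/6i+ATRA. The groups did not overlap. The log2 fold change was 0.70 ± 0.08 with ATRA (adjusted p = 1.8e-11) and 1.97 ± 0.07 with CDK4/6i+ATRA (adjusted p = 8.7e-30), while that with CDK4/6i, 0.12 ± 0.08, did not pass the test (adjusted p = 0.21). The combination was 2.42 times the level with ATRA alone (log2 difference 1.28 ± 0.07, adjusted p = 7.7e-23).

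The numbers of genes past the threshold are read against the share of all 13318 genes that passed the same test. PPARG is left out of these numbers, because it could be tested only through the libraries in which it is high. With ATRA, 4 of the 7 other tested genes were higher and none was lower (background 32.1% higher and 35.5% lower). With CDK4/6i, NR1H2, NR1H3 and ABCA1 were higher and PPARD was lower, 3 and 1 of 7 (28.3% and 27.9%). With CDK4/6i+ATRA, 5 were higher and 1 was lower (41.0% and 40.7%). CDK4/6i+ATRA-treated cells had 5 higher and 2 lower against CDK4/6i alone (39.1% and 39.5%) and 5 higher and 1 lower against ATRA alone (36.9% and 32.8%). The higher calls against CDK4/6i alone include NR1H2 at 0.10 ± 0.05 (adjusted p = 0.042), which did not pass in 11 of the 12 fits that left out 1 library. Scaling by library size alone moved the median of all genes in this comparison to -0.28 and the value of NR1H2 to -0.18 (adjusted p = 0.00096). Relative to the median it was 0.10 under either scaling. Against ATRA alone NR1H2 was higher by 0.31 ± 0.05 (adjusted p = 1.0e-07), and by 0.01 (adjusted p = 0.93) with scaling by library size alone, under which the median of all genes was -0.26. These 7 genes had a median log2 fold change of 0.40 for ATRA, 0.12 for CDK4/6i and 0.92 for the combination, and those of all genes were -0.03, 0.02 and 0.02. The comparisons share the non-treated libraries.

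Whether the effect of ATRA differed with and without CDK4/6i was tested as the interaction of the drugs. It subtracts both single-drug changes from the change seen with the combination, on the log2 scale. A value of 0 means that fold changes multiply. Leaving out PPARG, whose high counts with both drugs let it pass the filter, the interaction was positive for 4 of the 7 other tested genes and negative for 1 (background 24.5% positive and 27.0% negative). PPARD was 6.15-fold higher with both drugs, and the product of the single-drug folds was 2.05, an interaction of 1.58 ± 0.18 (adjusted p = 3.1e-10). PLIN2 was 3.93-fold higher against a product of 1.76 (interaction 1.16 ± 0.10, adjusted p = 1.7e-13). VDR was 1.89-fold higher against a product of 1.25 (0.60 ± 0.09, adjusted p = 1.5e-07, and 0.28, adjusted p = 0.013, with scaling by library size alone). ABCA1 was 29.5-fold higher against 17.9 (0.73 ± 0.14, adjusted p = 1.5e-05, and 0.41, adjusted p = 0.026, with scaling by library size alone), so most of its log2 change was already given by the sum of the single-drug changes, 4.16. MYLIP had a negative interaction of -1.29 ± 0.15 (adjusted p = 2.5e-10), with a single-drug sum of -0.11. PPARG had 3.95 ± 1.15, a description that rests on few counts outside the combination. The value was 3.07 without non-treated replicate 3. NR1H2 had 0.05 ± 0.07 (adjusted p = 0.57), and -0.27 (adjusted p = 0.00066) with scaling by library size alone, which moved the median of all interactions from -0.02 to -0.34. Relative to that median, NR1H2 was at 0.07 under either scaling. NR1H3 had -0.60 ± 0.28 (adjusted p = 0.068), and -0.91 (adjusted p = 0.0041) with scaling by library size alone. It also passed the threshold without ATRA replicate 2 (-0.71, adjusted p = 0.043) and without CDK4/6i replicate 2 (-0.71, adjusted p = 0.038).

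**Figure D3:**
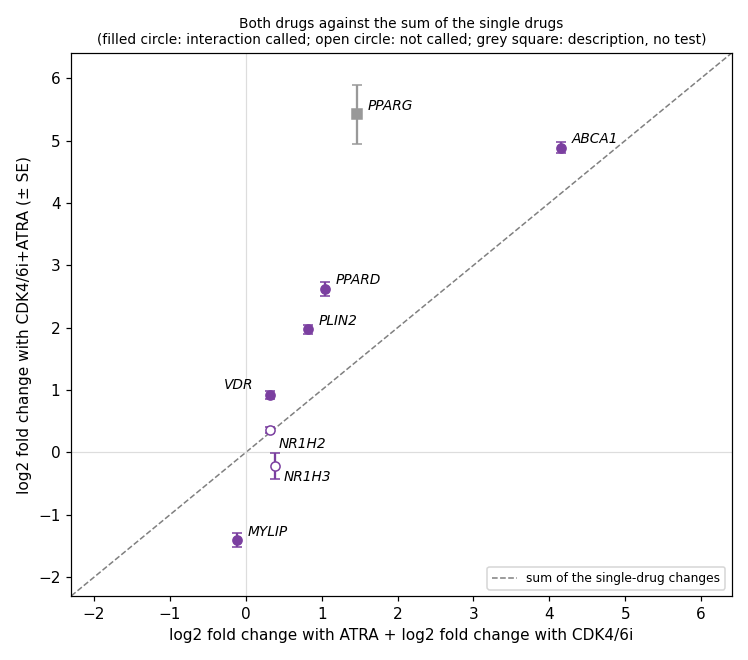
Log2 fold change with both drugs (y axis) by the summed log2 fold changes of ATRA alone and CDK4/6i alone (x axis) for 8 of the 9 genes (vertical bars, SE of the value with both drugs; dashed line, equality; filled circle, interaction past the threshold; open circle, not; grey square, PPARG, a description without a test). PPARG, PPARD, PLIN2, VDR and ABCA1 lie above the line and MYLIP below it. NR1H2 and NR1H3 did not pass the interaction test.

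The remaining RXR partners and RXRs were described from a list of 14 genes, of which 9 were tested. With CDK4/6i+ATRA, 4 were higher and 3 lower, with a median of 0.22, while 41.0% of all genes were higher and 40.7% lower. RXRB was among the higher genes (1.04 ± 0.41, adjusted p = 0.020), but did not pass with scaling by library size alone (0.77, adjusted p = 0.077), with no filter (0.93, adjusted p = 0.065), without replicate 2 of the non-treated cells (0.86, adjusted p = 0.086) or without replicate 1 of the combination (0.95, adjusted p = 0.067). NR4A1, an orphan receptor chosen after its values were seen, was among the lower. NR4A1 had 4.38 and 2.79 CPM (-0.63 ± 0.23, adjusted p = 0.011) and did not pass without replicate 1 (-0.51, adjusted p = 0.065) or replicate 2 (-0.47, adjusted p = 0.084) of the non-treated cells or without replicate 2 of the combination (-0.54, adjusted p = 0.053). RARA, the main receptor of ATRA in myeloid cells, rose by 2.06 ± 0.05 on the log2 scale (44.4 to 184.5 CPM, adjusted p = 4.2e-38), and RARG rose by 2.92 ± 0.16 from 2.09 CPM (adjusted p = 1.5e-22). PPARA rose by 1.39 ± 0.09 with ATRA and by 2.25 ± 0.09 with CDK4/6i+ATRA (adjusted p = 3.0e-19 and 1.4e-28). THRA fell by 4.20 ± 0.08 with CDK4/6i+ATRA, from 126.6 to 6.88 CPM (adjusted p = 3.1e-41). The interaction of RXRA was 0.12 ± 0.06 (adjusted p = 0.081) and -0.20 (adjusted p = 0.0038) with scaling by library size alone. Without non-treated replicate 3 it passed as positive (0.15, adjusted p = 0.038). NR1H4, which binds bile acids, and THRB were listed at 0 in all libraries.

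Of 14 coregulators of these receptors, 13 were tested, with 6 higher and 5 lower with CDK4/6i+ATRA (median -0.08), beside 41.0% and 40.7% of all genes. NRIP1, a corepressor that ligand-bound receptors recruit, rose by 3.41 ± 0.05 (26.9 to 285.8 CPM, adjusted p = 7.6e-47), and the coactivators NCOA3 and NCOA2 by 3.49 ± 0.05 and 1.67 ± 0.08 (adjusted p = 9.8e-49 and 4.8e-25). PPARGC1B, a coactivator of PPARs, fell by 1.45 ± 0.07 (adjusted p = 7.6e-25). NCOR1, a corepressor that sits on unliganded receptors, rose by 0.53 ± 0.04 (adjusted p = 3.4e-17).

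Of 19 other LXR targets, 9 were tested, 5 were higher and 4 lower with CDK4/6i+ATRA (median 0.38), where 41.0% and 40.7% of all genes were, and 8 were at the floor in all libraries. MERTK and SMPDL3A, among the higher genes, were under the filter's 0.632 CPM in every non-treated library and so passed it only through groups in which they are higher. Leaving them out, 3 of 7 were higher and 4 lower, and the median was -2.26. MERTK, a receptor for the uptake of dying cells, was at the floor in non-treated cells and was at least 180-fold higher with ATRA and at least 701-fold higher with CDK4/6i+ATRA. SREBF1, the switch for fatty acid synthesis, rose with ATRA by 1.05 ± 0.06 (adjusted p = 2.7e-20) and was lower with both drugs than with ATRA alone, a log2 difference of -0.65 ± 0.06 (adjusted p = 1.2e-12). Its value against non-treated cells was 0.40 ± 0.07 with both drugs (adjusted p = 1.0e-06), and 0.14 (adjusted p = 0.10) with scaling by library size alone. The enzymes that SREBF1 controls fell: SCD by 2.76 ± 0.05, from 623.2 to 91.7 CPM (adjusted p = 2.3e-44), and FASN by 2.26 ± 0.04, from 1079 to 225.0 CPM (adjusted p = 2.7e-41). Their interactions were -1.34 ± 0.06 and -1.30 ± 0.06 (adjusted p = 1.8e-24 and 2.4e-24). PLTP, a phospholipid transfer protein, rose by 1.72 ± 0.14 with ATRA (adjusted p = 8.5e-16) and by 0.67 ± 0.16 with both drugs (adjusted p = 0.00024). LPCAT3, a lysophospholipid acyltransferase, went from 8.49 to 11.1 CPM (0.38 ± 0.13, adjusted p = 0.0090), and with scaling by library size alone the value was 0.11 (adjusted p = 0.45). It also did not pass without non-treated replicate 2 (0.29, adjusted p = 0.068), without replicate 1 of the combination (0.30, adjusted p = 0.059) or with no filter (0.27, adjusted p = 0.088). RGS16 fell by 3.08 ± 0.19 (adjusted p = 1.4e-20). SMPDL3A, a phosphodiesterase, was the other gene that rose, with 0.16 CPM in non-treated cells and 1.37 CPM with both drugs. APOE did not exceed 0.20 CPM in the mean of any group.

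Of 22 other PPAR targets, 19 were tested, 8 were higher and 6 lower with CDK4/6i+ATRA (median 0.24), where 41.0% and 40.7% of all genes were. ANGPTL4 and CD36 among the higher genes and FABP3, a fatty acid carrier, among the lower passed the filter only through the groups in which they are higher. Without them 6 of 16 were higher and 5 lower, with a median of 0.16. The lipase inhibitor ANGPTL4 and the fatty acid transporter CD36 were at the floor in non-treated cells and were at least 708-fold and 139-fold higher, at 133.1 and 26.1 CPM. Both were also above ATRA alone, by 4.34 ± 0.09 and 2.33 ± 0.13 on the log2 scale (adjusted p = 3.0e-39 and 2.6e-20). SLC25A20, the carnitine carrier of mitochondria, rose by 1.94 ± 0.06 (adjusted p = 7.1e-33) and ACSL1, which activates fatty acids, by 1.44 ± 0.04 (adjusted p = 1.8e-36). CPT1A, the entry step of mitochondrial fatty acid oxidation, fell by 1.28 ± 0.04 (adjusted p = 8.7e-32), and HILPDA, an inhibitor of droplet lipolysis, fell by 3.04 ± 0.18 (adjusted p = 2.4e-21). PDK4 and FABP4 were at 0 in all libraries.

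Of 16 VDR targets, 10 were tested, 7 were higher and 2 lower with CDK4/6i+ATRA, where 41.0% and 40.7% of all genes were. Their median was 5.09 as fitted, and 3.61 with the gene at the floor set to its bound. G0S2 and TREM1 among the higher genes and CYP27B1 among the lower passed the filter only through the groups in which they are higher. Without them 5 of 7 were higher and 1 was lower, with a median of 4.57. LRRC25 and SLC37A2, still among the higher genes, had as few as 7 and 3 counts in a library, under the filter's 0.632 CPM. Nothing is read from these numbers about VDR. The members that rose included LRRC25, with 0.82 CPM in non-treated cells and 181.5 CPM with both drugs. The receptor TREM1 had 0.26 and 27.2 CPM in these groups. The growth factor HBEGF rose as well (4.88 to 342.8 CPM, 6.12 ± 0.07, adjusted p = 3.8e-52). HBEGF had an interaction of 2.06 ± 0.14 (adjusted p = 1.2e-17). The genes that fell were named after their values were seen. They were the carbonic anhydrase CA2 (11.6 to 0.82 CPM, -3.81 ± 0.24, adjusted p = 3.1e-20) and CYP27B1, which makes active vitamin D. CYP27B1 went from 1.09 to 0.26 CPM, a description without a test. CYP24A1, the vitamin D-degrading enzyme and most direct of VDR targets, was listed at 0 in all libraries, and CAMP, CD14 and THBD did not exceed 0.29 CPM in any group mean. The genes that rose are also expressed by maturing myeloid cells, whose marker ITGAM rose in the same libraries, and the part of maturation in their rise was not tested.

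Of 18 other genes of lipid droplets, 14 were tested, 8 were higher and 1 was lower with CDK4/6i+ATRA (median 0.58), where 41.0% and 40.7% of all genes were. Of the higher genes, PLIN4, PLIN5 and SOAT2 passed the filter only through the groups in which they are higher. Without them 5 of 11 were higher and 1 was lower, with a median of 0.11. The lower gene was DGAT1, which makes triglycerides, with 19.1 and 14.4 CPM (-0.41 ± 0.09, adjusted p = 8.0e-05). DGAT1 is also listed on 1 alternate contig. PLIN3, the relative of PLIN2 found on nascent droplets, rose by 0.90 ± 0.04 with ATRA, 0.42 ± 0.04 with CDK4/6i and 1.54 ± 0.04 with both (109.1 to 317.8 CPM, adjusted p = 2.6e-34). NCEH1, a cholesterol ester hydrolase, rose by 1.76 ± 0.06 (adjusted p = 1.5e-31). SOAT1, which makes cholesterol esters, fell with CDK4/6i by 2.11 ± 0.10 (adjusted p = 3.1e-24), yet rose by 0.66 ± 0.08 with CDK4/6i+ATRA (adjusted p = 7.9e-11). Its interaction was 2.05 ± 0.12 (adjusted p = 1.4e-19). The lipase PNPLA2 had -0.09 ± 0.05 with both drugs (adjusted p = 0.10), but passed as lower with scaling by library size alone (-0.35, adjusted p = 1.7e-07) and without a filter (-0.20, adjusted p = 0.0013). PLIN1, the perilipin of adipocytes, was at the floor in all libraries.

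The last list held 12 genes of sterol handling and the 4 UBE2D ubiquitin-conjugating enzymes, with which ligases such as MYLIP work. Of the sterol genes 10 were tested, and 5 were higher and 4 lower with CDK4/6i+ATRA, where 41.0% and 40.7% of all genes were. CYP27A1, which makes oxysterols and is 1 of the 5 higher genes, passed the filter only through the groups in which it is higher. Of the UBE2D enzymes 2 were higher, UBE2D1 (1.14 ± 0.07, adjusted p = 9.0e-20) and UBE2D3 (0.37 ± 0.04, adjusted p = 9.8e-13), and 2 were lower, UBE2D2 (-0.44 ± 0.05, adjusted p = 7.0e-10) and UBE2D4 (-0.47 ± 0.11, adjusted p = 0.00010). The list as a whole had a median of 0.20. Without CYP27A1, 6 of its 13 tested genes were higher and 6 lower, with a median of 0.02. SCARB1, a receptor for high-density lipoprotein, fell by 3.53 ± 0.07 (adjusted p = 1.4e-40), and OSBPL1A, an oxysterol-binding protein relative, fell by 3.96 ± 0.09 (adjusted p = 1.0e-38). STARD4, a cholesterol carrier, and NPC1, which releases cholesterol from lysosomes, rose by 3.02 ± 0.08 and 1.39 ± 0.06 (adjusted p = 2.7e-36 and 2.0e-27).

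**Figure D4:**
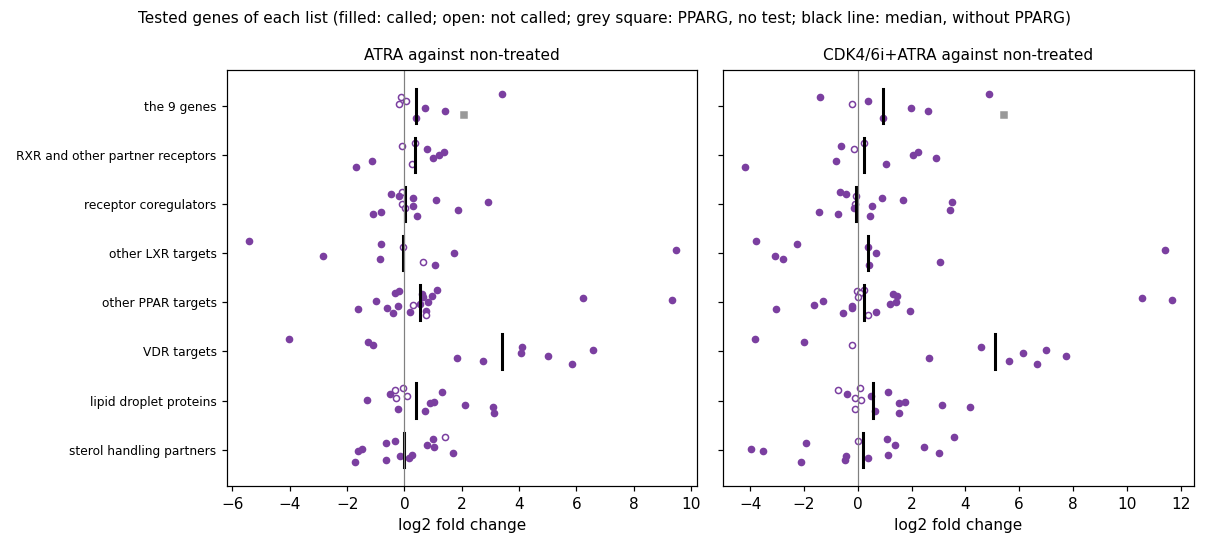
Log2 fold changes of the tested genes of each list with ATRA (left) and with CDK4/6i+ATRA (right) against non-treated cells (filled circle, past the threshold; open circle, not; grey square, PPARG, without a test; black line, list median, for the 9 genes without PPARG; values of genes at the floor in non-treated cells are as fitted). The VDR targets have medians of 3.41 and 5.09 as fitted, and 2.39 and 3.61 with the gene at the floor set to its bound. The 9 genes without PPARG have medians of 0.40 and 0.92.

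Among tested genes with a mean of at least 5 CPM, those whose log2(CPM + 1) followed each gene most closely over the 12 libraries were named by Pearson's r, a description of 4 groups of 3 libraries. They were ATG2A (0.998) and TRIOBP (0.998) for ABCA1, DDX6 (0.996) and NRIP1 (0.995) for PPARD, ADORA2B (0.996) and JARID2 (0.996) for PLIN2, and RASA1 (0.991) and WWP2 (0.989) for VDR. For PPARG they were ZEB2 (0.985) and PIK3R1 (0.985), for MYLIP COL4A1 (0.983) and SPRY1 (0.980), for NR1H2 BPNT1 (0.977) and FAM234A (0.976), and for NR1H3 C2orf74 (0.937) and UBL5 (0.928). COL4A1 had 15.0, 11.8, 13.9 and 2.7 CPM in non-treated, ATRA-, CDK4/6i- and CDK4/6i+ATRA-treated cells and was lowest with both drugs, as MYLIP was. NR1H3 had the lowest such values of the 8 genes.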

How the data were processed

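Total RNA was made into directional libraries, per the labels. The authors trimmed reads with Trimmomatic 0.33 and aligned them with STAR 2.7.11a to hg38 under the NCBI RefSeq annotation, per the labels and the methods. They deposited raw counts per gene, whole numbers without normalization, for 12 libraries. The methods name RSEM, whereas the table has the layout of featureCounts. Whether reads were counted by strand is not given in the sources used here. The deposited gene length, from the same table, was used for CPM per kb only.

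The counts were filtered with filterByExpr, normalized with TMM and tested in edgeR 4.0.16 (R 4.3.3, limma 3.58.1) by the quasi-likelihood F test. All 12 libraries entered 1 model with a term per group, over 13318 genes and with 8 residual degrees of freedom. The fit also borrows information on the spread from all tested genes, so the p-values of a gene do not rest on its own libraries alone. P-values were adjusted over these genes by the Benjamini-Hochberg method, and those under 0.05 were called. The SE of a log2 fold change was derived from the test, as its absolute value divided by the square root of the F statistic. Total counts of 12230923 to 18679544 per library make 3 counts equal to 0.156 to 0.275 CPM. Genes below the filter were tested by the exact permutation test. The members and lists were chosen with earlier results of these data known. The lists were put together from textbook knowledge and are described by counts and medians.

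The genes named are the 9 genes, a set listed in the design, up to 3 further genes per list with the largest change with CDK4/6i+ATRA among called genes with a mean of at least 5 CPM, and the 2 genes with the highest correlation with each tested gene. A gene named outside this rule was picked with its values in view. Some genes that the rule covers are left out of the text. Alternatives comprised scaling with DESeq2 size factors or by library size alone, a minimum of 10 counts per library or no filter, DESeq2 1.42.0 instead of edgeR, a replicate block, a fit to the compared groups only, and the removal of 1 library at a time. The tests were tested on simulated data. Promoter windows came from RefSeq (GRCh38.p14). Figures were drawn with matplotlib 3.10.9.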

Additional observations from a re-analysis of the deposited data

Results flagged for a closer look

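The effect of ATRA differed with and without CDK4/6i, by the test of the interaction of the drugs (edgeR's quasi-likelihood test, Benjamini-Hochberg adjustment over all genes), for 5 of the 7 tested genes other than PPARG. Among all 13318 genes, 24.5% had a positive and 27.0% a negative interaction past the threshold. On the log2 scale the interaction was 0.73 for ABCA1 (adjusted p = 1.5e-05), -1.29 for MYLIP (adjusted p = 2.5e-10), 1.16 for PLIN2 (adjusted p = 1.7e-13), 1.58 for PPARD (adjusted p = 3.1e-10) and 0.60 for VDR (adjusted p = 1.5e-07). Positive values mean that the rise with ATRA was larger in the presence of CDK4/6i. PPARG had 3.95, a description without a test, since its counts without both drugs were 15 or fewer in every library and it passed the filter through the libraries with both drugs.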

How the results depend on the processing

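Without PPARG, the number of the genes past the threshold stayed within 1.5 times its value in all 6 comparisons under the alternatives run. The fit to the compared groups only exists for 5 of them, not for the interaction. Over these genes and comparisons, 755 values kept direction and side of the threshold, 20 no longer passed it, 5 newly passed it and 11 changed sign. PPARG, whose values are descriptions, was filtered out with at least 10 counts in every library and, for ATRA, with the compared groups only. Scaling by library size alone moved the median of all genes to -0.25 for both drugs against non-treated cells, -0.28 against CDK4/6i alone, -0.26 against ATRA alone and -0.34 in the interaction. Relative to these medians, the values of the tested genes other than PPARG moved by at most 0.003. Under it, before that correction, NR1H2 changed sign against CDK4/6i alone (-0.18) and in the interaction (-0.27), as did the interaction of RXRA (-0.20). Without a filter, the interaction of NR1H2 was -0.037 and MYLIP with CDK4/6i was -0.003. Leaving out 1 library at a time gave ranges that cross 0 for MYLIP with ATRA (-0.20 to 0.018) and with CDK4/6i (-0.079 to 0.14), and NR1H3 with CDK4/6i+ATRA against ATRA (-0.13 to 0.071), none of which passed the test, and for the untested value of PPARG with CDK4/6i (-1.15 to 0.27). With the replicate block, 1 call was lost, that of NR1H2 with CDK4/6i+ATRA against CDK4/6i alone (0.10, adjusted p = 0.050), and no other call of the tested genes changed. Samples with the same number did not deviate together: the correlations of their deviations were -0.114 to 0.07 over 18 pairs. Taken as the mean over the libraries of each number in the other groups, 0 of 12 libraries correlated best with their own number. Depth limits PPARG outside the combination, NR1H3 and ABCG1, for which 3 counts amount to 0.156 to 0.275 CPM. The causes of these changes were not tested.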
